A study of Homo sapiens with 6 samples.

Results

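The genes described here encode the subunits of the proteasome, together with its activators, its inhibitor and the factors that assemble it. They were chosen by name alone: every gene whose symbol is PSMA, PSMB, PSMC, PSMD, PSME, PSMF or PSMG followed by a number, which gave 48 of the 48644 genes in the expression table. Poly(A) RNA was sequenced in 6 libraries of KYSE70, an established cell line from a human squamous carcinoma of the esophagus. The cells carried a doxycycline-inducible short hairpin, in a pLKO-Tet-On vector, against SOX2 (shSOX2 line) or against TP63 (shTP63 line), which are transcription factor genes of squamous epithelium. Uninduced cells (day 0) of each line gave 1 library. Cells kept for 4 days in 50 ng/ml doxycycline (day 4) gave 2 per line. All 4 groups are stable hairpin lines of the same cell line. No library of a non-targeting hairpin is among the 6, so effects of doxycycline or of time in culture and effects of the hairpin cannot be told apart within a line.

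The proteasome is the large protease that degrades proteins tagged with ubiquitin. Its barrel-shaped core is built from rings of alpha subunits (PSMA genes), which gate the entry, and rings of beta subunits (PSMB genes), of which PSMB5, PSMB6 and PSMB7 encode the catalytic ones of most cells. Cells exposed to interferon and many immune cells replace these with the immunoproteasome subunits PSMB8, PSMB9 and PSMB10, which alter the peptides made for presentation on MHC class I. The regulatory particle caps the core: its ring of ATPases (PSMC genes) unfolds substrates, and its other subunits (PSMD genes) bind and remove ubiquitin. PSME1 and PSME2 encode the activator PA28, PSME3 and PSME4 other activators, PSMF1 an inhibitor, and PSMG1 to PSMG4 the chaperones that assemble the core. PSMD5, PSMD9 and PSMD10 encode chaperones that assemble the base of the regulatory particle. Most subunits of the complex are made in equal numbers, and the transcription factor NRF1 (gene NFE2L1) is known to raise many of their genes together when proteasome activity is short.

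Values are given as log2(RPKM + 1), where RPKM are reads scaled to the length of the transcript and to the size of the library. Levels of different genes can thus be set side by side. The libraries were also read as normalized to a common distribution by the authors. Summed RPKM, shares and percentages of day 0 are therefore not plain RPKM. A log2 change on this scale understates the change of genes at low levels. The tests took genes whose RPKM averaged 1 or more across the 6 libraries, which kept 10536 genes and 43 of the 48 proteasome genes. The tests used limma, a linear model fitted to all genes at once, with the adjustment of Benjamini and Hochberg and a threshold of 0.05. Errors after ± are limma standard errors, with n = 2 at day 4 and n = 1 at day 0. The read depth is unknown, because the table holds no counts. Whether day 4 libraries came from separate cultures is not stated, so the p-values rest on a spread between samples that may be only technical. The library titles carry numbers, taken here as replicate numbers, that could instead number hairpins. Both day 0 libraries carry the number 2, so replicate 1 at day 4 has no day 0 library of its own number in either line. If the numbers mark hairpins, replicate 1 minus day 0 would compare 2 different hairpins.

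SOX2 stood at 6.25 in the shSOX2 line at day 0, and at 4.67 and 5.65 in its day 4 replicates 1 and 2 (limma adjusted p = 0.469). TP63 stood at 3.99 in the shTP63 line at day 0 and at 2.11 and 2.27 in its day 4 replicates 1 and 2 (limma adjusted p = 0.131). Both hairpin targets were thus lower after induction, without passing the test against day 0. Between the induced lines TP63 passed, at -1.73 ± 0.26, shTP63 minus shSOX2 (limma adjusted p = 0.0467). The uninduced shTP63 library stood apart, with 16167 genes above 0 against 21530 to 23509 in the others. Every value of the shTP63 response depends on it. Of 11 squamous markers, 10 passed the filter, and the list summed to 1860 RPKM at day 0 and 700 to 1090 RPKM at day 4 in the shSOX2 line, and to 2880 and 1060 to 2420 RPKM in the shTP63 line. The lowest of them in both lines was the keratin gene KRT6A, with log2 changes of -2.73 and -3.15 (limma adjusted p = 0.294 and 0.116). Of these 10, 5 were below day 0 in both induced shSOX2 libraries and 3 above, where 40.2% and 33.3% of all tested genes were. In the shTP63 line 4 were below and 4 above, where 38.5% and 37.9% of all tested genes were. The highest were EPCAM at 0.83 in the shSOX2 line and CDH1 at 2.63 in the shTP63 line. KRT5 and KRT6A make up most of the sums, so the sums do not stand for the whole list. Of 12 leukocyte markers 1 passed the filter, CD68. That list summed to an RPKM of at most 6.93 in any library, and CD3D, CD3E and MS4A1 were at 0 throughout. Of 8 fibroblast markers 3 passed the filter. That list summed to 6.64 to 11.1 RPKM at day 0 and to 32.8 to 163 RPKM at day 4, led by COL3A1 alone. COL3A1 stood at 3.24 at day 0 and at 7.29 and 4.78 in induced shSOX2 replicates 1 and 2. In the shTP63 line it stood at 2.13 at day 0 and at 5.79 and 6.47 after induction. THY1 and COL1A1 had log2 changes of 1.52 and 0.465 in the shSOX2 line and of -0.01 and 1.02 in the shTP63 line. The part of both lists in the results below was not tested. In a bulk culture, fewer cells with a transcript and less of it per cell cannot be told apart.

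Proteasome genes were lower after induction in both lines, and no single gene passed the test. In the shSOX2 line 41 of the 43 tested genes were below day 0 in both induced libraries, where 40.2% of all tested genes were. In the shTP63 line 33 of 43 were, where 38.5% of all tested genes were. Limma called 0 of the 43 in either response, and it called 0% of all tested genes in the shSOX2 response and 0.019% in the shTP63 response. The median log2 change of the 43 was -0.65 in the shSOX2 line and -0.33 in the shTP63 line, against -0.05 and 0.00 for all tested genes. These genes were proposed for description with results of the same data known, and members of 1 complex are not replicates, so counts and medians over them carry no p-value.

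**Figure D1:**
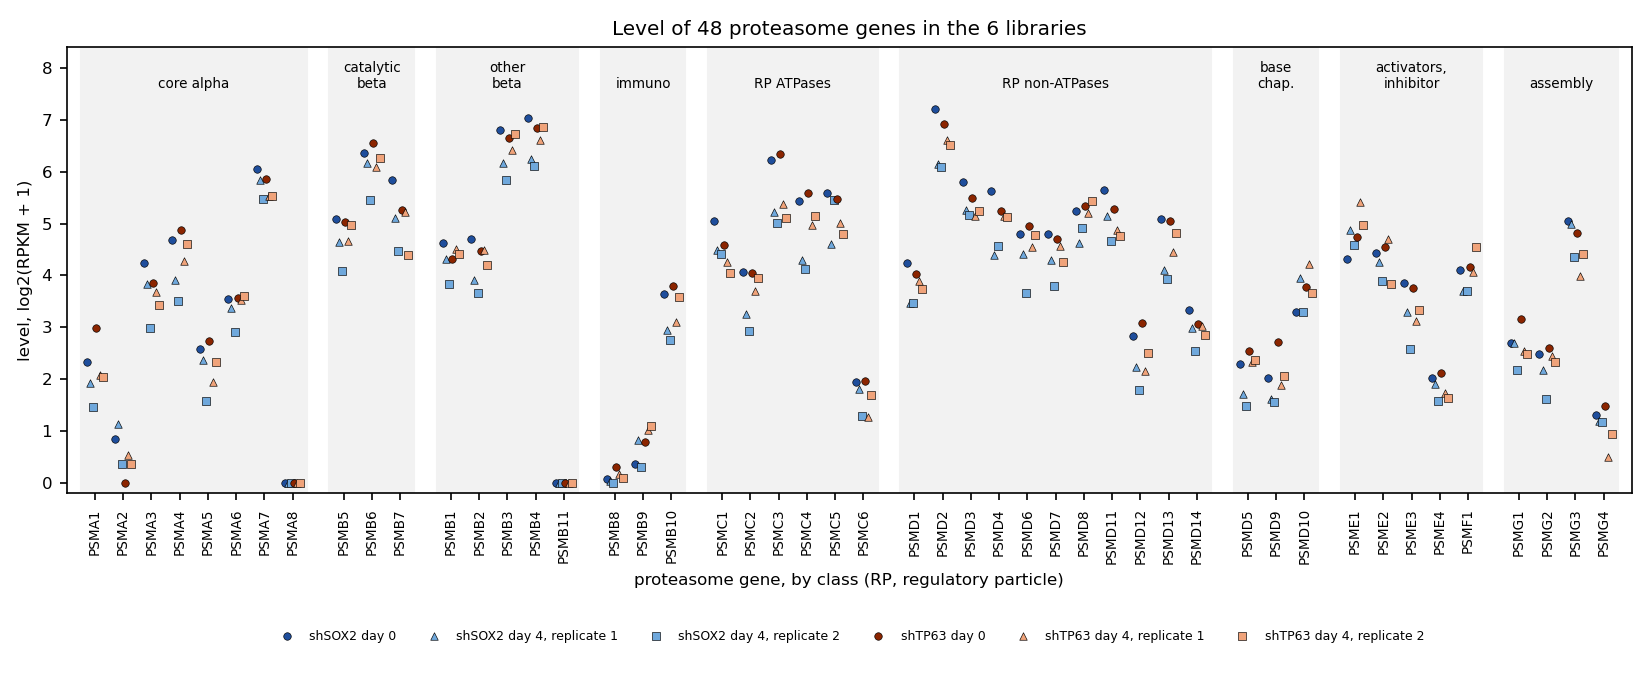
Level of the 48 proteasome genes in log2(RPKM + 1), by class along the horizontal axis, with 1 point per library (circles day 0, triangles day 4 replicate 1, squares day 4 replicate 2). The dark circles of day 0 lie at the top of most columns, PSME1 has its shSOX2 circle at the bottom, and PSMA8 and PSMB11 lie at 0 in all 6 libraries.

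The uninduced lines had similar proteasome levels. Their medians over the 43 genes were 4.62 in the shSOX2 line and 4.54 in the shTP63 line, and the median difference, shTP63 minus shSOX2, was 0.00. Of the 43 genes, 21 were lower in the shTP63 line at day 0, where 49% of all tested genes were. At day 4 the medians were 4.11 and 3.69 in shSOX2 replicates 1 and 2 and 4.29 and 4.27 in shTP63 replicates 1 and 2. All 4 induced medians were thus below both day 0 medians. Summed over the 43 genes, RPKM in the shSOX2 line were 65.4% of day 0 in replicate 1 and 53.8% in replicate 2. In the shTP63 line the sums were 80.8% and 82.3% of day 0. In all, 33 of the 43 were below day 0 of the same line in all 4 induced libraries, where 23% of all tested genes were. For 30 of the 43 every induced library lay below both day 0 libraries, where 14.2% of all tested genes did so and where the reverse held for 0 of the 43 and 11.5% of all tested genes.

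The 2 induced shSOX2 libraries were not equally far from day 0. Replicate 2 was below replicate 1 for 39 of the 43 genes, where 53.8% of all tested genes were, with a median difference of -0.36 against -0.04 for all tested genes. SOX2 itself was lower in replicate 1, by the levels given above. With 1 library on each side, a relation between SOX2 level and proteasome genes was not tested. The 2 induced shTP63 libraries had no common shift: 20 of 43 were lower in replicate 2, where 49.3% of all tested genes were. The median difference, replicate 2 minus replicate 1, was 0.05 against 0.01 for all tested genes. Single genes differed more, in both directions: replicates 1 and 2 were at 5.23 and 4.40 for PSMB7 and at 0.50 and 0.95 for PSMG4.

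**Figure D2:**
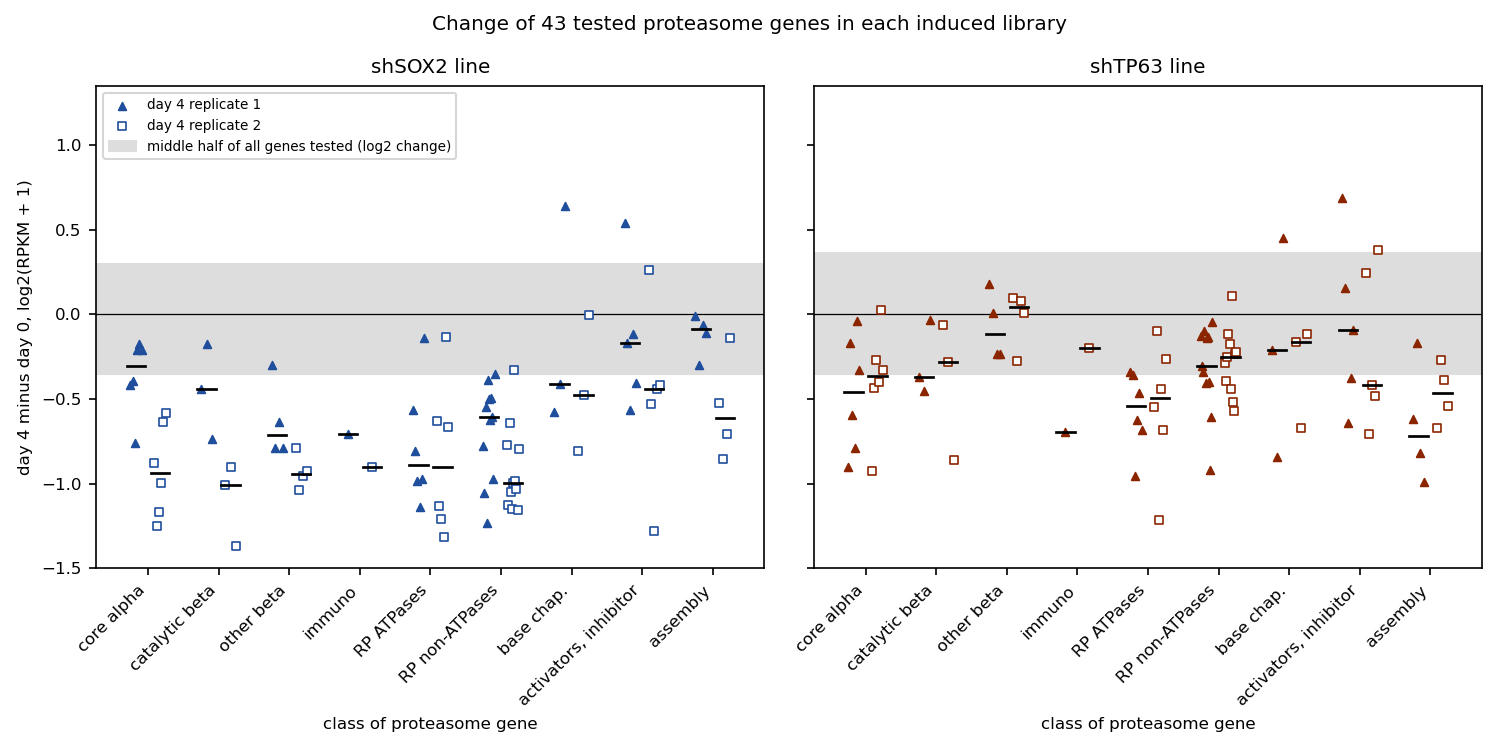
Difference from day 0 in log2(RPKM + 1) for each of the 43 tested genes in each induced library, by class, with 1 panel per line; bars mark class medians and the grey band spans the quartiles of the log2 change over all tested genes. In the shSOX2 line the medians of the regulatory particle ATPases are -0.89 and -0.90 in replicates 1 and 2, while those of the assembly factors are -0.08 and -0.61.

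Because most subunit genes were lower together, their promoters were searched for motifs of known regulators. RefSeq windows of GRCh38.p14, from 250 bases before to 50 after the start, matched 42 of the 48 genes by symbol. The antioxidant response element, bound by NRF1 and NRF2, is spelled TGACNNNGC on either strand. It was found in 13 of 42 windows (31%), against 13.6% of 27305 windows of all genes. For this and the motifs below, that background takes all genes, whether or not they were expressed here. No share over the tested genes was made, so a higher share among the members was not tested. The windows below are 30 bases each, 5′ to 3′ on the strand of the gene, with the match in capitals, from 4 genes that were lower in both induced shSOX2 libraries and from PSME1, which was higher.
PSMB3, chr17:38752627-38752656, plus strand: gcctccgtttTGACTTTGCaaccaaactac
PSMD3, chr17:39980760-39980789, plus strand: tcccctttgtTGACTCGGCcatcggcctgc
PSMD5, chr9:120843037-120843066, minus strand: tggctacagtTGACACGGCcctaacggagg
PSMD12, chr17:67366723-67366752, minus strand: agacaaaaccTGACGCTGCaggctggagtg
PSME1, chr14:24136098-24136127, plus strand: atggcagggcTGACCCCGCctcctccatcc

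PSMB3 and PSMD12 had log2 changes of -0.79 ± 0.35 and -0.82 ± 0.35 in the shSOX2 line, PSMD3 -0.59 ± 0.33 and PSMD5 -0.69 ± 0.30. PSMC4, the lowest of the 43 in that line, holds a match 27 bases after its start, while PSMC3 and PSMD2 had none, which says only that these letters are not in their windows. The element was thus in windows of genes that were lower and of PSME1, which was higher.

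The interferon-stimulated response element, spelled GAAA, any 2 bases and GAAA on either strand, was found in 6 of 42 windows (14.3%), against 3.65% of all windows. In 3 of them, before the start site, the match was the same run of letters, shown here because the genes belong to 3 classes with different log2 changes.
PSMB10, chr16:67936852-67936881, minus strand: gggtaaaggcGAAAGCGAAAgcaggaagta
PSME2, chr14:24146619-24146648, minus strand: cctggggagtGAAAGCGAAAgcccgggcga
PSMG4, chr6:3258904-3258933, plus strand: ttccggggccGAAAGCGAAAgcgcgctcgg

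PSMB10, PSME2 and PSMG4 had log2 changes of -0.80 ± 0.36, -0.35 ± 0.44 and -0.12 ± 0.30 in the shSOX2 line and of -0.45 ± 0.36, -0.28 ± 0.44 and -0.76 ± 0.30 in the shTP63 line. PSME1 holds a match just after its start and was higher in all 4 induced libraries. The CCAAT box (CCAAT, either strand) was in 19 of 42 windows (45.2%), against 35.7% of all windows. A core of SOX factor sites, CATTGT on either strand, was in 2 of 42 windows (4.76%), those of PSMC1 and PSMD1, against 11% of all windows. A match is a description of letters, not a bound site.

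The regulatory particle ATPases were lower throughout. All 6 of 6 were below day 0 of the same line in all 4 induced libraries. So were 33 of the 43 proteasome genes and 23% of all tested genes. The median log2 change of the 6 was -0.78 in the shSOX2 line and -0.50 in the shTP63 line. PSMC3 encodes 1 ATPase of the ring. It stood at 6.21 in the shSOX2 line at day 0 and at 5.23 and 5.01 in its induced replicates 1 and 2, and at 6.33 in the shTP63 line at day 0 and at 5.38 and 5.11 after induction. Day 0 and day 4 levels did not overlap and lay almost one log2 unit apart in each line. Its log2 change was -1.10 ± 0.35 in the shSOX2 line (limma adjusted p = 0.417) and -1.08 ± 0.35 in the shTP63 line (limma adjusted p = 0.233).

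PSMC4, another ATPase of the ring, had the lowest log2 change of the 43 in the shSOX2 line. Its levels were 5.43 at day 0 and 4.30 and 4.12 in the induced replicates 1 and 2, which gives -1.23 ± 0.34 as log2 change (limma adjusted p = 0.37). The shTP63 levels were 5.59 at day 0 and 4.97 and 5.15 after induction, or -0.53 ± 0.34 (limma adjusted p = 0.51). PSMC5 was the ATPase whose shSOX2 replicates differed most, at -0.98 in replicate 1 and -0.14 in replicate 2 from day 0. PSMC6 had the lowest level of the ring in every library, 1.28 to 1.96, while its partners stood between 2.94 and 6.33. PSMC1 has 13 named pseudogene rows in the table. The highest of them, PSMC1P1, had a mean RPKM of 17.3 against 21.7 for PSMC1, so the value of PSMC1 is uncertain.

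The other subunits of the regulatory particle were lower in the shSOX2 line in every case. All 11 of 11 were below day 0 in both induced shSOX2 libraries, where 41 of the 43 and 40.2% of all tested genes were. Their median log2 change was -0.77, with a lowest of -1.14 for PSMD4 and a highest of -0.48 for PSMD8. In the shTP63 line 10 of 11 were below, where 33 of the 43 and 38.5% of all tested genes were. The shTP63 median was -0.29. PSMD4 encodes a ubiquitin receptor of the particle. It stood at 5.63 at day 0 in the shSOX2 line and at 4.39 and 4.57 in the induced replicates 1 and 2, so that its log2 change was -1.14 ± 0.34 (limma adjusted p = 0.395). PSMD4 in the shTP63 line stood at 5.23 at day 0 and at 5.14 and 5.12 after induction, which gives -0.11 ± 0.34 (limma adjusted p = 0.914). The induced shSOX2 libraries thus lay below the other 4.

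PSMD2, the scaffold subunit of the base, had the highest level of all 48 genes at day 0 in both lines. Its levels were 7.21 at day 0 and 6.15 and 6.08 in the induced shSOX2 replicates 1 and 2, or -1.09 ± 0.32 as log2 change (limma adjusted p = 0.395). With the TP63 hairpin it stood at 6.91 at day 0 and at 6.61 and 6.52 after induction, or -0.35 ± 0.32 (limma adjusted p = 0.661). Both induced libraries lay below day 0 in each line, further in the shSOX2 line. PSMD12, a lid subunit at 1.80 to 3.08 over the 6 libraries, had the lowest log2 change of the class in the shTP63 line, -0.74 ± 0.35 (limma adjusted p = 0.369).

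The alpha subunits of the core were nearer to day 0 in shSOX2 replicate 1 than in replicate 2. The 6 tested of 8 had a median difference from day 0 of -0.30 in replicate 1 and of -0.94 in replicate 2. In the shTP63 line 5 of 6 were below day 0 in both induced libraries, where 38.5% of all tested genes were. The median log2 change of the 6 in that line was -0.38. PSMA1 had the lowest change of the class there. It stood at 2.98 at day 0 and at 2.08 and 2.05 in induced shTP63 replicates 1 and 2, or -0.91 ± 0.33 as log2 change (limma adjusted p = 0.272). Its induced shTP63 levels were closer to the day 0 level of the shSOX2 line, 2.34, than to that of its own line, and against the shSOX2 day 0 library the log2 change was -0.27 (limma adjusted p = 0.706, from 0.249 to 0.706 over the alternatives). The induced shSOX2 levels of PSMA1 were 1.92 and 1.46, which gives -0.65 ± 0.33 (limma adjusted p = 0.531).

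Levels within the alpha ring were far apart, although the ring holds its subunits in equal numbers. PSMA7 stood at 5.47 to 6.05 over the 6 libraries. PSMA2 stood at 0.86 in the shSOX2 line at day 0, at 1.13 and 0.38 in its induced replicates 1 and 2, at 0.54 and 0.36 in induced shTP63 replicates 1 and 2, and it was listed at 0 in the shTP63 line at day 0. PSMA2 encodes a subunit of the core that every cell uses, so a value of 0 may be a failed estimate. It did not pass the filter, with a mean RPKM of 0.507. PSMA8, the alpha subunit of the testis, was listed at 0 in all 6 libraries.

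The beta subunits without a catalytic site were lower in the shSOX2 line. PSMB1, PSMB2, PSMB3 and PSMB4 were all below day 0 in both induced shSOX2 libraries, where 40.2% of all tested genes were. Their median log2 change there was -0.83. Their shTP63 median was -0.10, or 0.04 without shTP63 day 4 replicate 1. In that line 0 of the 4 were below day 0 in both induced libraries, where 38.5% of all tested genes were. PSMB4 had the highest level of the core at day 4 in all 4 induced libraries. It stood at 7.03 at day 0 and at 6.24 and 6.10 in induced shSOX2 replicates 1 and 2, and at 6.85 at day 0 and at 6.62 and 6.86 in the shTP63 line. PSMB11, the catalytic beta subunit of the thymus, was listed at 0 in all libraries.

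The catalytic subunits of most cells were lower in both lines. PSMB5, the chymotrypsin-like subunit that bortezomib binds, stood at 5.09 at day 0 and at 4.65 and 4.08 in induced shSOX2 replicates 1 and 2, which gives -0.72 ± 0.39 as log2 change (limma adjusted p = 0.546). Its shTP63 levels were 5.03 at day 0 and 4.66 and 4.97 after induction, or -0.22 ± 0.39 (limma adjusted p = 0.841). The induced shTP63 libraries thus stayed within 0.37 of their day 0 level. PSMB6, the caspase-like subunit, stood at 6.35 at day 0 and at 6.17 and 5.44 in the shSOX2 line, and at 6.55 at day 0 and at 6.10 and 6.27 in the shTP63 line. Its log2 changes were -0.54 ± 0.40 and -0.37 ± 0.40 (limma adjusted p = 0.653 and 0.723). PSMB7, the trypsin-like subunit, stood at 5.83 at day 0 and at 5.10 and 4.46 in the shSOX2 line, or -1.05 ± 0.47 as log2 change (limma adjusted p = 0.494). With the TP63 hairpin PSMB7 stood at 5.26 at day 0 and at 5.23 and 4.40 after induction, so its log2 change of -0.45 ± 0.47 (limma adjusted p = 0.705) came from replicate 2.

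Immunoproteasome genes were nearly silent but for PSMB10. PSMB8, which replaces PSMB5, stood at 0.07 in the shSOX2 line at day 0, at 0.03 and 0 in its induced replicates 1 and 2, at 0.31 in the shTP63 line at day 0, and at 0.18 and 0.09 after induction. PSMB9, which replaces PSMB6, stood at 0.37 in the shSOX2 line at day 0, at 0.82 and 0.32 after induction, at 0.79 in the shTP63 line at day 0, and at 1.03 and 1.10 after induction. Neither passed the filter. PSMB8 and PSMB9 overlap each other and an antisense gene in GENCODE annotation, and no strand-specific step is stated, so their low values may hold reads of their neighbours. As a share of the summed RPKM of the pair, PSMB8 was 0% to 0.753% of PSMB8 and PSMB5 over the 6 libraries, and PSMB9 was 0.364% to 1.52% of PSMB9 and PSMB6. PSMB9 had its highest shares, 1.52% and 1.48%, in the induced shTP63 replicates 1 and 2, against 0.787% at day 0 in that line.

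PSMB10, which replaces PSMB7, was of another order. It stood at 3.65 in the shSOX2 line at day 0 and at 2.94 and 2.75 after induction, or -0.80 ± 0.36 as log2 change (limma adjusted p = 0.495). Its shTP63 levels were 3.79 at day 0 and 3.10 and 3.59 after induction, or -0.45 ± 0.36 (limma adjusted p = 0.609). It was below day 0 in all 4 induced libraries, in the direction of the constitutive subunits. Its share of PSMB10 and PSMB7 was 17.1% at day 0 and 16.7% and 21.3% after induction in the shSOX2 line, and 25.6% at day 0 and 17.1% and 35.4% after induction in the shTP63 line. The shares of the induced replicates lay on either side of day 0 in each line, so the share of PSMB10 did not differ beyond the spread between replicates. With 2 day 0 and 4 day 4 libraries the smallest two-sided p of an exact permutation test is 0.133, so none was made.

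**Figure D3:**
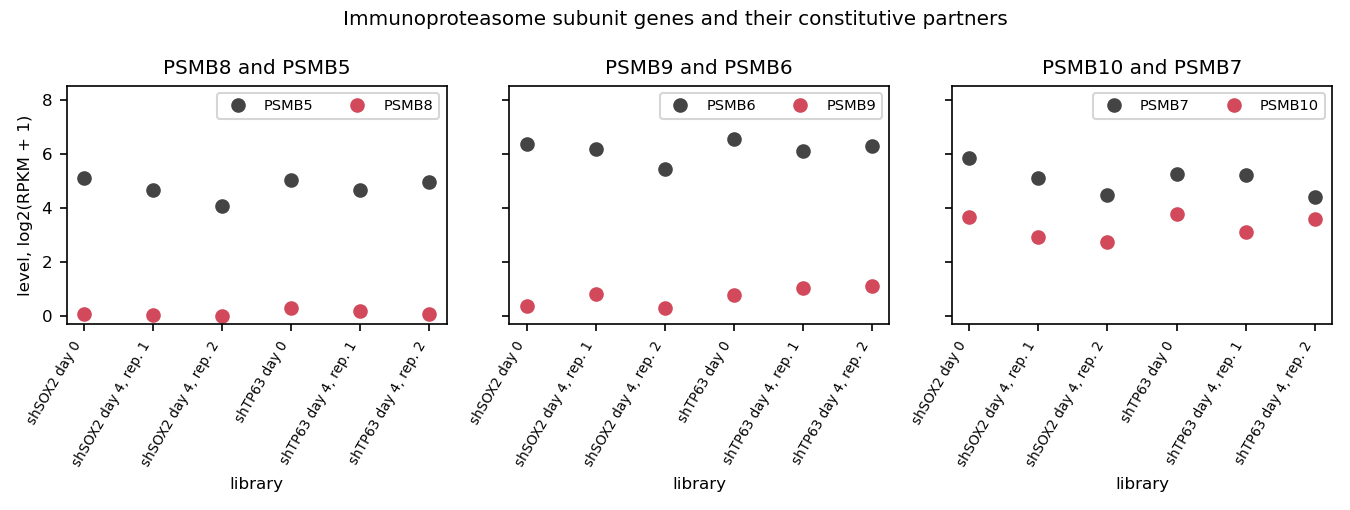
Levels in log2(RPKM + 1) of each immunoproteasome gene (red) and the constitutive gene it replaces (dark grey) in the 6 libraries. PSMB8 and PSMB9 stay at or below 1.10 while their partners stay at or above 4.08, and PSMB10 lies between 2.75 and 3.79.

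The activators did not share a direction. PSME1 encodes the alpha subunit of PA28. Of the 43 it alone was above day 0 of the same line in all 4 induced libraries, where 19.4% of all tested genes were. It stood at 4.32 at day 0 and at 4.87 and 4.58 in induced shSOX2 replicates 1 and 2, and at 4.73 at day 0 and at 5.42 and 4.97 in the shTP63 line. Its log2 change was 0.40 ± 0.37 in the shSOX2 line (limma adjusted p = 0.724) and 0.46 ± 0.37 in the shTP63 line (limma adjusted p = 0.606), so neither passed. The induced shSOX2 levels lay on either side of the shTP63 day 0 level, and the log2 change against that library was -0.01 (limma adjusted p = 0.996, from 0.646 to 1 over the alternatives).

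PSME2, the partner of PSME1 in the same ring, did not follow it. In GENCODE annotation exons of PSME1 overlap EMC9 and those of PSME2 overlap RNF31, on the opposite strand. No strand-specific step is stated, so the values of both may hold reads of these neighbours. PSME2 stood at 4.43 at day 0 and at 4.26 and 3.90 in the shSOX2 line, or -0.35 ± 0.44 as log2 change (limma adjusted p = 0.8). With the TP63 hairpin PSME2 stood at 4.54 at day 0 and at 4.70 and 3.83 after induction, on either side of day 0, which gives -0.28 ± 0.44 (limma adjusted p = 0.82). PSME3, the nuclear activator PA28 gamma, was below day 0 in all 4 induced libraries, with a log2 change of -0.92 ± 0.40 in the shSOX2 line and -0.53 ± 0.40 in the shTP63 line (limma adjusted p = 0.481 and 0.577). The inhibitor gene PSMF1 stood at 4.11 at day 0 and at 3.71 and 3.69 in the shSOX2 line, or -0.41 ± 0.36 as log2 change (limma adjusted p = 0.71). PSMF1 in the shTP63 line stood at 4.17 at day 0 and at 4.07 and 4.54 after induction, or 0.14 ± 0.36 (limma adjusted p = 0.886).

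The chaperones of the core were lower in both lines. All 4 PSMG genes were below day 0 in both induced libraries of each line, where 23% of all tested genes were. However, the median difference from day 0 in shSOX2 replicate 1 was -0.08. The median log2 change was -0.32 in the shSOX2 line and -0.62 in the shTP63 line. Without shSOX2 day 4 replicate 1 the shSOX2 median was -0.61. PSMG4 stood at 1.49 in the shTP63 line at day 0 and at 0.50 and 0.95 in its induced replicates 1 and 2, or -0.76 ± 0.30 as log2 change (limma adjusted p = 0.308). Its shSOX2 levels were 1.31 at day 0 and 1.21 and 1.17 after induction, or -0.12 ± 0.30 (limma adjusted p = 0.903). PSMG4 had the lowest mean level of the 43 tested genes, a mean RPKM of 1.20. The difference between the responses did not pass for any of the 4 (limma adjusted p from 0.995 to 0.997).

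The chaperones of the base were not alike. PSMD9 stood at 2.73 in the shTP63 line at day 0 and at 1.88 and 2.06 in its induced replicates 1 and 2, or -0.76 ± 0.30 as log2 change (limma adjusted p = 0.301). Its shSOX2 levels were 2.03 at day 0 and 1.62 and 1.55 after induction, or -0.44 ± 0.30 (limma adjusted p = 0.611). Against the shSOX2 day 0 library the shTP63 log2 change of PSMD9 was -0.07 (limma adjusted p = 0.929, from 0.283 to 0.929 over the alternatives), so its size rests on 1 library. PSMD10, also known as gankyrin, stood at 3.31 at day 0 and at 3.95 and 3.30 in the shSOX2 line, and at 3.78 at day 0 and at 4.23 and 3.66 in the shTP63 line. It was higher in replicate 1 and lower or level in replicate 2 of each line, with log2 changes of 0.32 ± 0.42 and 0.17 ± 0.42 (limma adjusted p = 0.808 and 0.887).

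**Figure D4:**
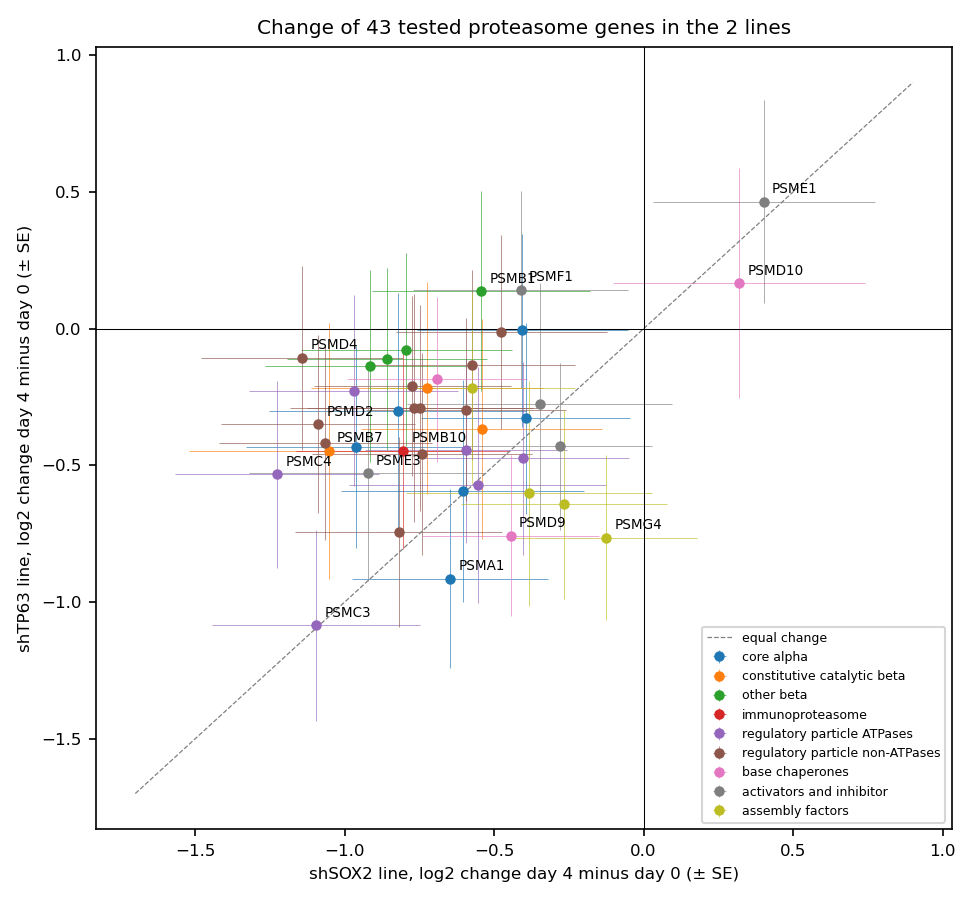
Log2 change from day 0 to day 4 of the 43 tested genes in the shSOX2 line (horizontal) and in the shTP63 line (vertical), with limma standard errors as bars and colours by class. Most points lie in the lower left, above the dashed line of equal change, with PSMC3 near that line at -1.10 and -1.08, PSME1 and PSMD10 in the upper right, and PSMF1 and PSMB1 in the upper left.

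Averaging both responses gave each gene a smaller error, and still no proteasome gene passed. Limma called 0 of the 43 for the mean of both responses, where it called 0.0569% of all tested genes. PSMC3 came closest, with a mean log2 change of -1.09 ± 0.25 (limma adjusted p = 0.0958, from 0.06 to 0.206 over 11 alternatives). At an unadjusted p under 0.05, 12 of 43 were lower, where 10.1% of all tested genes were, and 0 were higher, where 10.4% of all tested genes were. In the shSOX2 response 11 of 43 were lower at that unadjusted threshold, where 4.26% of all tested genes were, and 0 were higher, where 6.12% were. In the shTP63 response 4 of 43 (9.3%) were lower, where 7.24% of all tested genes were, a share near that background, and 0 were higher, where 7.33% were. By the fold of RPKM + 1, 14 of 43 were at least 1.5-fold lower in both induced shSOX2 libraries, where 5.85% of all tested genes were, and 0 were as much higher, where 7.85% were. The shTP63 line had 4 of 43 (9.3%) that much lower, where 9.17% of all tested genes were, a share at that background, and 0 that much higher, where 9.39% were. By the fold of RPKM with no pseudocount, a scale added after seeing the data, 16 of 43 were that much lower in the shSOX2 line, where 10% of all tested genes were, and 0 higher, where 11.8% were. On that scale the shTP63 line had 6 of 43 (14%) lower, where 13% of all tested genes were, and 0 higher, where 14.4% were.

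The difference between the 2 responses was not shown for any proteasome gene. Its median, shTP63 minus shSOX2, was 0.40 over the 43 genes against 0.03 for all tested genes. Limma called 0 of 43 and 0% of all tested genes, and at an unadjusted p under 0.05 it had 0 of 43 in either direction, where 2.47% of all tested genes were lower and 2.08% higher. PSMD4 had the smallest unadjusted p, with a difference of 1.04 ± 0.48 (limma adjusted p = 0.995). Between the induced lines 22 of 43 were higher in both shTP63 libraries than in both shSOX2 libraries, where 30.5% of all tested genes were, and 2 were lower in both, where 26.6% were. Limma called 0 of 43 there, where it called 0.759% of all tested genes. At an unadjusted p under 0.05, 5 of 43 were higher in the shTP63 line, where 10.5% of all tested genes were, and 0 lower, where 12.5% were. PSMD5, a chaperone of the base, came closest at 0.76 ± 0.25 (limma adjusted p = 0.145). The median between the induced lines was 0.37, and 0.14 without shSOX2 day 4 replicate 2. The median difference of the responses was 0.17 without that library.

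Other genes of the proteasome pathway were set beside the subunits. Of 16 further proteasome-associated genes, 11 were below day 0 in both induced shSOX2 libraries and 10 in both shTP63 libraries, where 40.2% and 38.5% of all tested genes were, with median log2 changes of -0.41 and -0.18. The ubiquitin receptor gene ADRM1 was the lowest of this list in both lines, at -0.84 ± 0.35 and -0.55 ± 0.35 (limma adjusted p = 0.465 and 0.502). The highest were UBQLN4 at 0.07 in the shSOX2 line and UBQLN2 at 0.85 in the shTP63 line. Of 9 tested genes for ubiquitin and its first enzymes, 6 were lower in both induced shSOX2 libraries and 3 in both shTP63 libraries, against the same 40.2% and 38.5%, so the shTP63 count was not above the background. Limma called 0 members of these lists in any contrast.

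Another large cytosolic complex was set beside the proteasome. Of 14 genes of the chaperonin CCT and its partner prefoldin, which fold new proteins, 13 were below day 0 in both induced shSOX2 libraries and 9 in both shTP63 libraries, where 40.2% and 38.5% of all tested genes were. Their median log2 changes were -0.77 and -0.43, beside -0.65 and -0.33 for the 43 proteasome genes. The lowest in both lines was CCT6A, at -1.38 ± 0.45 and -1.20 ± 0.45 (limma adjusted p = 0.423 and 0.283). The highest in both lines was PFDN5, at 0.03 and 1.58 (limma adjusted p = 0.989 and 0.195). PFDN5 was the 1 gene of the list above day 0 in both induced shTP63 libraries, where 37.9% of all tested genes were.

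The list of 15 genes for NRF1 control of proteasome genes was mixed. It also holds NFE2L2, the gene of NRF2, with KEAP1, BACH1, SQSTM1, HMOX1, TXNRD1, GCLM and NQO1. Its counts and medians thus cover NRF2 genes too and not the NRF1 pathway alone. NFE2L1 stood at 5.88 at day 0 and at 6.38 and 6.64 in the shSOX2 line, and at 5.80 at day 0 and at 6.11 and 6.71 in the shTP63 line. All 4 induced libraries lay above both day 0 libraries, with log2 changes of 0.63 ± 0.39 and 0.61 ± 0.39 (limma adjusted p = 0.584 and 0.506). The medians of the 15 genes of this list were -0.17 in the shSOX2 line and 0.30 in the shTP63 line. In the shSOX2 line 6 of the 15 were below day 0 in both induced libraries and 3 above, where 40.2% and 33.3% of all tested genes were. With the TP63 hairpin 5 were below and 8 above, where 38.5% and 37.9% of all tested genes were, so the counts below day 0 were near the background in both lines. TXNRD1, a thioredoxin reductase gene, was the lowest in the shSOX2 line at -1.41 ± 0.57 (limma adjusted p = 0.465), and MAFF, a small MAF partner gene, the lowest in the shTP63 line at -1.87 ± 0.35 (limma adjusted p = 0.131).

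MHC class I processing genes, which use the peptides of the proteasome, were higher rather than lower. Of 12 tested, 10 were above day 0 in both induced shSOX2 libraries and 7 in both shTP63 libraries, where 33.3% and 37.9% of all tested genes were. Their median log2 changes were 0.74 and 0.33. TAPBP, the tapasin gene, stood at 4.04 at day 0 and at 5.30 and 5.88 in the shSOX2 line, and at 3.84 at day 0 and at 5.01 and 4.86 in the shTP63 line. Its log2 changes were 1.55 ± 0.38 and 1.10 ± 0.38 (limma adjusted p = 0.349 and 0.258). Of 30 interferon response genes listed, 8 passed the filter, with median log2 changes of 0.01 and 0.13, and 2 were above day 0 in both induced shSOX2 libraries and 4 in both shTP63 libraries, against the same 33.3% and 37.9%. The highest were BST2 in the shSOX2 line, 1.22 ± 0.34 (limma adjusted p = 0.368), and STAT2 in the shTP63 line, 1.27 ± 0.36 (limma adjusted p = 0.195). Limma called 0 genes of these lists in any contrast.

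**Figure D5:**
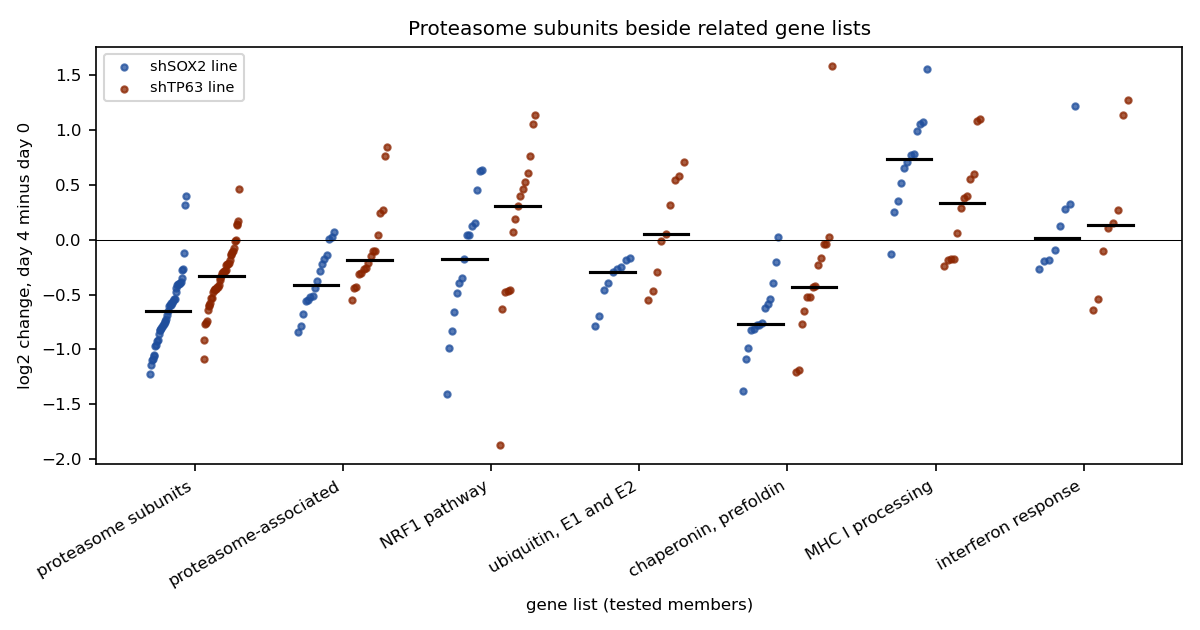
Log2 change from day 0 to day 4 of each tested gene in the proteasome set and in 6 related lists, blue for the shSOX2 line and brown for the shTP63 line, with bars at the medians. The proteasome medians, -0.65 and -0.33, lie near those of chaperonin and prefoldin genes, -0.77 and -0.43, and those of MHC class I processing, 0.74 and 0.33, lie above 0.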

How the data were processed

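Poly(A) RNA of 6 KYSE70 libraries was sequenced on an Illumina HiSeq instrument, per the labels' protocols. The deposited table is named RPKM, but its values were read as log2(RPKM + 1), so the deposited values were tested directly. Base 2 was inferred from sums of RPKM times transcript length in kilobases (GENCODE v29, 26795 genes matched). They came to at most 156000 per library with base 2 and to at least 1338000 with base e. The sums with base e were more than RPKM allows, and those with base 2 were well below what it allows. Base 2 was taken because its sums stay under that limit, so the base remains uncertain. The sums are approximate, since they used median transcript lengths and only the matched genes. All linear RPKM, shares and folds rest on this inference. Values at the same rank differed by at most 0.041 between libraries among the top 10000, so the libraries were read as normalized to 1 distribution by the authors, which hides depth. Per the submitters' processing notes the genome was hg19. Aligner and counter: not given in the sources used here.

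One model of 4 group means over the 6 libraries was fitted with limma 3.58.1 under R 4.3.3 (trend, 2 residual and 5.53 prior degrees of freedom), two-sided, Benjamini-Hochberg adjusted over 10536 genes. The spread at day 0 was taken from the day 4 pairs. Simulated data held 10536 genes, in which genes of like level shared the same spread. There limma recovered 16 of 50 genes changed by 1 log2 unit in the shSOX2 comparison and 50 of 50 changed by 2. Real genes of like level also differ in spread, so these counts may overstate recovery in the real data. KRT6A, with a log2 change of -2.73 in the shSOX2 line, was not called. Members and lists were chosen with earlier results of these data known. Genes given in every library were the immunoproteasome genes, their partners, PSME1, PSME2 and, per line, the 3 smallest p-values each way; others were named after their values were seen. In GENCODE v29, exons of 19 of the 48 genes overlap another gene on the opposite strand, and the counting is not stated to use strand. Alternatives covered filters, pseudocounts of 0.25 and 5, median-ratio scaling, no trend, left-out libraries, a replicate block and other controls.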

Additional observations from a re-analysis of the deposited data

Results flagged for a closer look

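PSMB1, a beta subunit without a catalytic site, was the 1 tested proteasome gene that lay below day 0 in both induced libraries of the shSOX2 line and above day 0 in both of the shTP63 line. It stood at 4.62 at day 0 and at 4.32 and 3.84 in shSOX2 replicates 1 and 2, and at 4.32 at day 0 and at 4.50 and 4.42 in the shTP63 line. The shTP63 response exceeded the shSOX2 response by 0.68, which limma's test of that difference did not call (adjusted p = 0.995). Taken from the shSOX2 day 0 library, the shTP63 response of PSMB1 was -0.16. The share of all tested genes with such opposite directions was not counted, so the count of 1 proteasome gene has no background here.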

How the results depend on the processing

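No alternative called any proteasome gene in any of the 5 contrasts, and the median of the proteasome genes kept its sign throughout. The setting without the uninduced shTP63 library and the one with the day 0 library of the other line were chosen after seeing the data. The shSOX2 median ranged from -0.88 to -0.50 when 1 library was left out. The shTP63 median was -0.25 with a pseudocount of 5, -0.42 with the replicate number as a block, -0.38 with both day 0 libraries as the control and -0.34 to -0.28 with 1 library left out. Of 567 class medians under an alternative 13 took the other sign, among them the beta subunits without a catalytic site in the shTP63 response, at 0.04 without shTP63 day 4 replicate 1, and the base chaperones in the shSOX2 response, at 0.32 with a mean RPKM of at least 5. Counts of called genes over the whole table moved far more, and the cause was not tested. With no filter they were 1090 in the shSOX2 response, 37 in the shTP63 response, 1232 for their mean, 1193 for their difference and 25 between the induced lines. At a mean RPKM of at least 5 they were 1 in the shTP63 response, 1 for the mean and 44 between the induced lines. A pseudocount of 5 gave 1 in the shSOX2 response and 30 between the induced lines, and a pseudocount of 0.25 gave 79 for the mean. With 1 library left out the counts ranged from 0 to 11 in the shSOX2 response, 0 to 80 in the shTP63 response, 0 to 263 for the mean, 0 to 5 for the difference and 0 to 324 between the induced lines. The replicate block gave 0 in the shTP63 response, 0 for the mean and 18 between the induced lines. The numbers were not shown to pair the libraries, since the deviations of same-numbered day 4 libraries correlated at -0.07 across genes. With the line alone limma called 11 genes for shSOX2 and 0 for shTP63, with both day 0 libraries 2 and 291, and with the day 0 library of the other line 4 and 49. Unknown depth limits what can be said of PSMA2, PSMB8 and PSMB9.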
